A study of Mus musculus with 2 samples.

Results

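The 7 genes described here are 6 of the S100 family (S100a8, S100a9, S100a4, S100a6, S100a10 and S100a11) and Anxa1, which encodes annexin A1. They were taken by name from the 24510 genes of 1 whole transcriptome single-cell library and followed through the immune cells of mouse tumours. The cells came from subcutaneous tumours of B16F10, a pigmented mouse melanoma line, grown in female C57BL/6 mice. The implanted tumour cells were wildtype, Tyr knockout or Oca2 knockout, with 3 mice per group, while the genotype of the mice is given as C57BL/6 alone. Cells positive for CD45, a leukocyte surface antigen, were sorted, given 1 sample tag per group and captured together, so the mice of a group shared a tag. The tags are numbered 8, 9 and 10, and no source used here ties a tag to a tumour genotype. Each tag's value is printed on its own for this reason, genotypes are not compared, and there are no p-values.

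S100 proteins are small calcium-binding proteins that act mostly as pairs, inside the cell and, once released, outside it. S100A8 and S100A9 together form calprotectin, which fills the cytosol of neutrophils and binds Toll-like receptor 4 when released. Annexins bind phospholipid membranes in the presence of calcium, S100A10 and S100A11 are known as partners of annexins, and annexin A1 is a ligand of formyl peptide receptors on leukocytes.

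All 6 S100 genes lie on mouse chromosome 3, where many genes of the family are clustered. S100a8 (ENSMUSG00000056054.9, chr3:90668978-90670035, plus strand) and S100a9 (ENSMUSG00000056071.12, chr3:90692632-90695721, minus strand) face each other with their 3′ ends 22.6 kb apart. S100a4 (chr3:90603771-90606045) and S100a6 (chr3:90612882-90624181) are close by on the plus strand. S100a11 (chr3:93520488-93526287) and S100a10 (chr3:93555080-93564643) form a second plus-strand pair 2.82 Mb beyond S100a9. Anxa1 lies on the minus strand of chromosome 19 (chr19:20373428-20390944). All 7 are annotated as protein-coding in GENCODE vM21 on GRCm38.

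The promoters of S100a8 and S100a9 are shown because their transcripts were the most narrowly placed of the 7. Each runs from 250 bases before to 50 after the RefSeq start on GRCm38.p6, at chr3:90668821-90669120 on the plus strand for S100a8 and chr3:90695672-90695971 on the minus strand for S100a9. Capitals mark matches, on either strand, to TTNNGNAA, the pattern of C/EBP factors, and to GAGGAA, a pattern of PU.1; both families of factors act in myeloid cells.
S100a8: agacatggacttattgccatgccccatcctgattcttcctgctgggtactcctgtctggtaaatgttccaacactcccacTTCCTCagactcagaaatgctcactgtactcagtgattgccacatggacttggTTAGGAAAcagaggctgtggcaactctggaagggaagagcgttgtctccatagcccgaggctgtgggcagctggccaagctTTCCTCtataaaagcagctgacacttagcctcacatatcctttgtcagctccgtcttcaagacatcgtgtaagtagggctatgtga
S100a9: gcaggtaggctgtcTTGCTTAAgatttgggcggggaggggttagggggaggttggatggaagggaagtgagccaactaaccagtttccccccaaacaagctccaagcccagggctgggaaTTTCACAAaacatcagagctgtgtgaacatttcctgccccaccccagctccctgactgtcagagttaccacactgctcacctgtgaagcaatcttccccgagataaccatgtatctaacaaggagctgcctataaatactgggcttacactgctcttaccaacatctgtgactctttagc
The S100a8 window held 1 match to TTNNGNAA and 2 to GAGGAA, and the S100a9 window held 2 and 0. Of 32851 promoters of this length, 40.7% held TTNNGNAA and 28.3% held GAGGAA, so both patterns are common. Promoters were found for 6 of the 7 genes, S100a10 being the exception. The 3 other S100 windows held no TTNNGNAA, but those of S100a4 and S100a11 held 1 match each to GAGGAA. The S100a6 window held neither pattern, and the Anxa1 window held 1 match to each. No match overlapped another in the S100a8 and S100a9 windows.

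The library held 14899 cells, of which 10491 had a single tag and passed the filters on genes and mitochondrial molecules (3336 with tag 8, 3486 with tag 9 and 3669 with tag 10), with a median of 3489 molecules per cell. Cells were divided into 16 classes by minimum numbers of molecules of marker genes other than these 7, and a cell counted only if it passed a single gate. This placed 5901 cells (56.2%), while 3941 passed no gate and 649 passed several. Classes ranged from 73 melanoma cells, present in spite of the sort, to 1191 C1q macrophages. The median depth ran from 1390 molecules in eosinophils and 2092 in neutrophils to 9331 in C1q macrophages and 68615 in melanoma cells. A level in CPM is the gene's molecules in every 1000000 molecules of the class. Markers that no gate used were highest where they should be in neutrophils (Trem1, Clec4d), C1q macrophages (Mrc1, Apoe, Cd68) and NK cells (Klre1, Gzma). F13a1 ranked 3 of 16 in monocytes and Bcl11b 4 of 16 in CD8 T cells. In eosinophils Cd24a was highest but Ear2 ranked 8 of 16 at 2.83 CPM, so that class rests on its gate genes.

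Neutrophils held most S100a8 and S100a9. S100a8 stood at 6221 CPM in tag 8, 3062 CPM in tag 9 and 4958 CPM in tag 10 among 772 gated neutrophils. S100a9 stood at 7763, 4227 and 6466 CPM in the same tags. Both were lowest in tag 9 and highest in tag 8, and the exact Poisson 95% intervals of the tags did not overlap (S100a8 from 6054 to 6391 CPM in tag 8 and from 2915 to 3214 CPM in tag 9). These intervals cover counting error only, not the spread between cells or mice, so a difference between tags was not tested. In the 15 other classes no tag exceeded 47.5 CPM for S100a8 or 69.9 CPM for S100a9, and no range met that of neutrophils. Across the 45 values of those classes the median was 6.30 CPM for S100a8 and 7.74 CPM for S100a9.

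**Figure D1:**
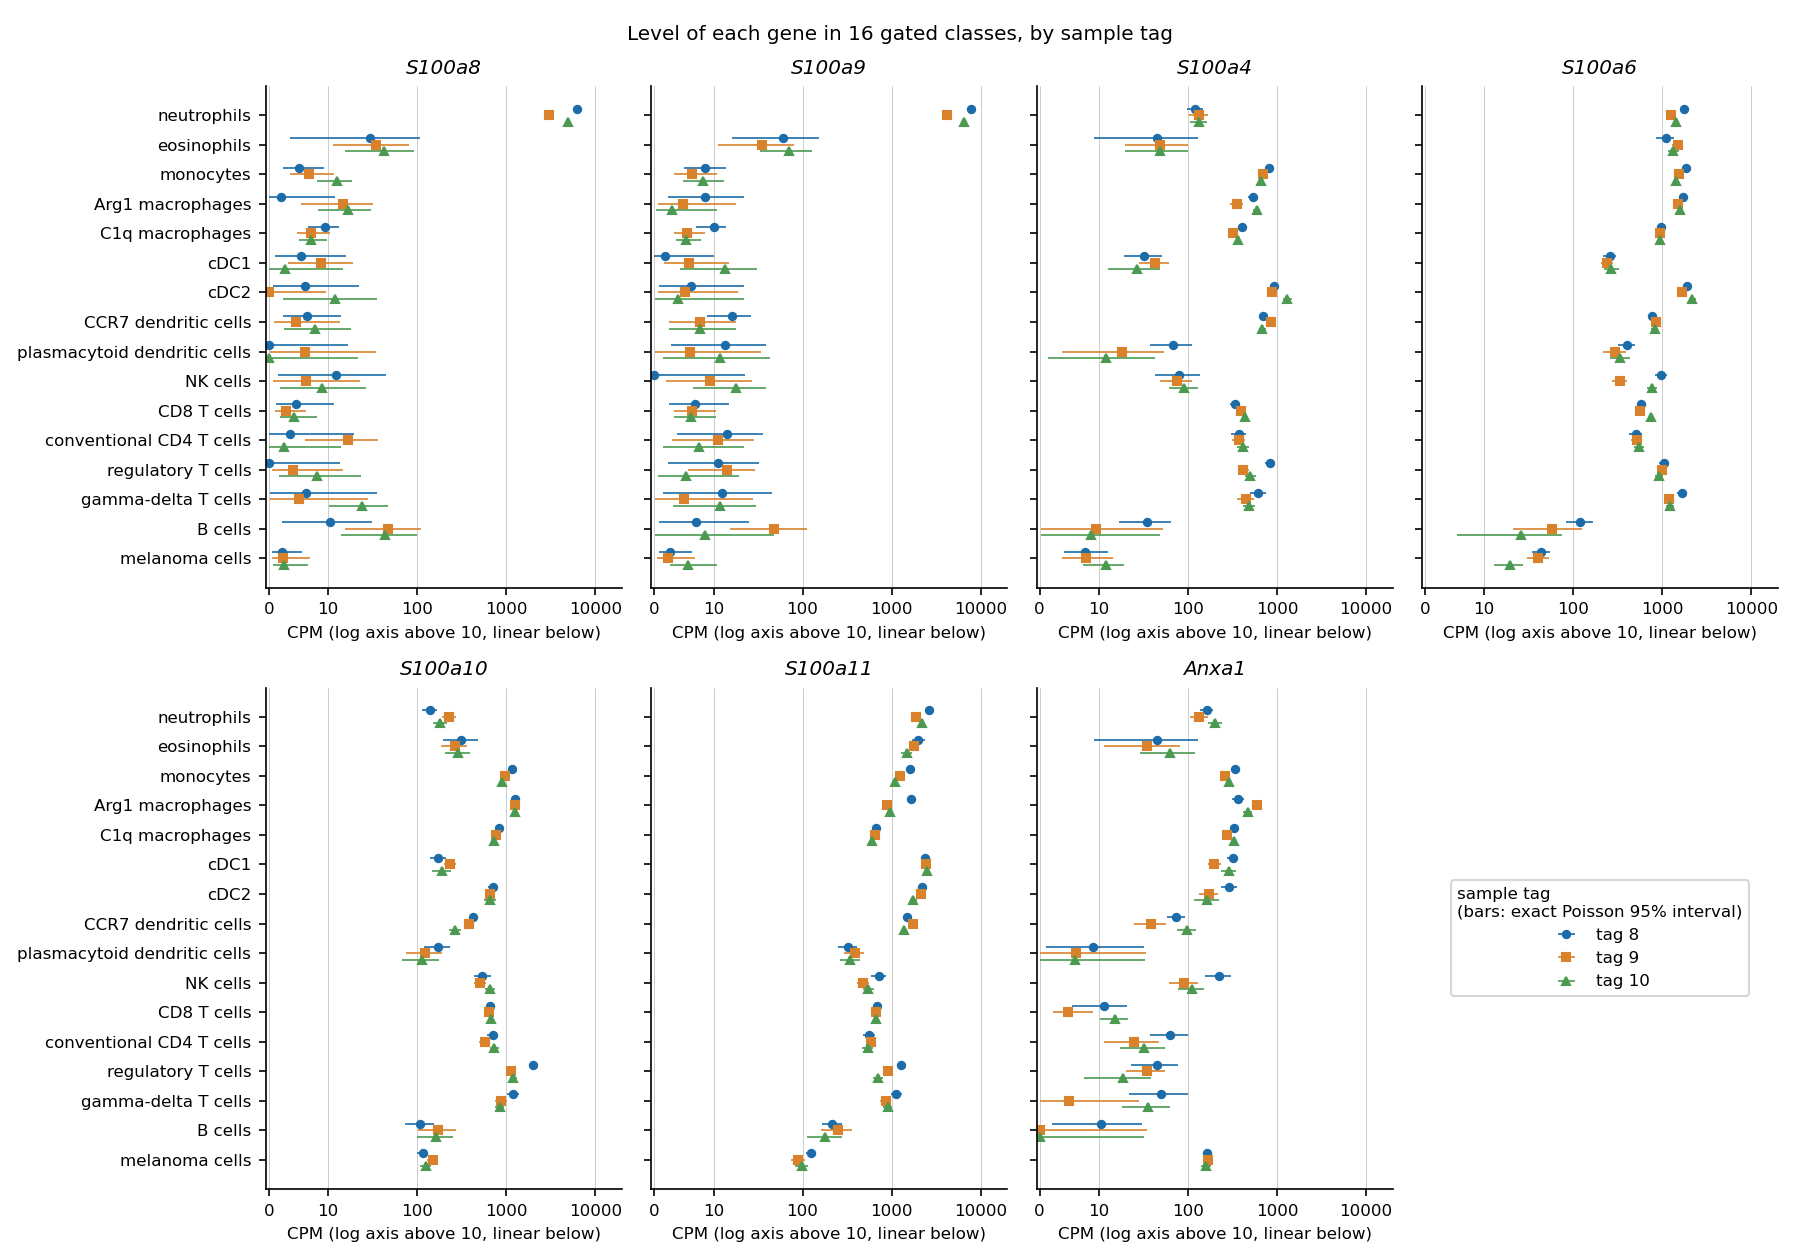
Level of each of the 7 genes in 16 gated classes, in CPM on an axis that is logarithmic above 10 and linear below, with 1 point per sample tag and its exact Poisson 95% interval (counting error only). S100a8 and S100a9 stand between 3062 and 7763 CPM in neutrophils and at or below 69.9 CPM in every other class, whereas the other 5 genes are spread over many classes.

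Single neutrophils differed widely in both genes. S100a8 had a median of 6 molecules per cell, with an upper quartile of 18 and a highest value of 109. S100a9 had a median of 8 molecules, an upper quartile of 24 and a highest value of 142. The medians were 8, 3 and 7 molecules in tags 8, 9 and 10 for S100a8 and 13, 4 and 9 for S100a9. The richest 10% of the cells held 42.4% of the S100a8 molecules and 39.5% of the S100a9 molecules. Cells with 10 or more molecules, 303 of 772 for S100a8 and 369 for S100a9, held 86.8% and 91.9%. These are raw counts, not set to equal depth.

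The 2 genes went together from cell to cell. Of the 772 neutrophils, 573 held both transcripts (74.2%, exact 95% interval 71.0% to 77.3%), 41 held S100a8 alone, 51 held S100a9 alone and 107 held neither (13.9%). After each cell was thinned to 1000 molecules, Spearman's rho between them was 0.78 over 751 cells of 1 library, beside 0.38 for S100a8 with S100a11 and 0.34 for S100a8 with S100a6. The 107 cells with neither transcript had nearly the same median depth as the other 665 (1971 against 2104 molecules). Fewer of them held the gate genes Cxcr2, the chemokine receptor of mature neutrophils (29.9% against 65.6%), or Hdc (52.3% against 92.3%). Fewer also held Clec4d (62.6% against 95.9%) or Trem1 (51.4% against 86.6%), which no gate used. Csf3r was similar (88.8% against 91.6%), but the gate largely sets this, since a cell without Cxcr2 had to hold Csf3r to pass. Whether all 107 are neutrophils was not tested. By tag, 29 of them carried tag 8, 42 tag 9 and 36 tag 10, against 297, 161 and 207 of the cells with a transcript.

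Outside neutrophils the transcripts were thinly spread. Gated neutrophils held 80.9% of the 28146 molecules of both genes, cells passing several gates held 9.13%, cells passing no gate 7.93% and the other 15 classes together 2.06%. Those 15 classes held 581 molecules in 450 of 5129 cells, and 376 of the 450 cells had exactly 1 molecule. Only 3 cells of the 15 classes had 5 or more molecules of both genes together. The richest was a C1q macrophage with 27 molecules, which also held 13 molecules of the 6 neutrophil gate genes.

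Cells with more molecules lay among the ungated and multiply gated cells. There 59 and 41 cells held 10 or more molecules of both genes, 1555 and 2388 molecules in all. All of these cells, the ungated and the multiply gated alike, also held a molecule of the neutrophil gate genes, with medians of 10 and 35 molecules, and the 41 multiply gated cells had all passed the neutrophil gate. These 41 cells count as outside the neutrophil class, which takes only cells that passed a single gate. So the share outside that class, 19.1%, is not a share outside the neutrophil gate, and it depends on how the gates are drawn. It was 24.7% with doubled gate minimums and 13.4% without the requirement of a Csf3r or Cxcr2 molecule.

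In lymphocytes, which should lack both genes, S100a8 stood at 6.71 CPM (exact 95% interval 5.15 to 8.61) and S100a9 at 8.55 CPM (6.77 to 10.7). These were 0.135% and 0.133% of the levels in neutrophils. They were set beside 16 other genes listed as neutrophil genes that no gate used. Lrg1 stood lower at 0.072%, but on 2 lymphocyte molecules, so its place is uncertain. Ngp and Camp had no molecule in lymphocytes but only 35 and 6 in neutrophils. The other 13 stood between 0.134% (Wfdc21, also on 2 molecules and between S100a9 and S100a8) and 55.0% (Pglyrp1). Trem1 stood at 0.297%, Slpi at 0.421% and Clec4d at 0.474%. Some genes of that list were not particular to neutrophils here. Pglyrp1 was highest in eosinophils (687 CPM, against 308 CPM in neutrophils) and Ifitm1 in cDC2 (1865 against 1425 CPM). Srgn stood at 16.6% in lymphocytes. In the 15 other classes together the levels of S100a8 and S100a9 were 0.142% and 0.118% of those in neutrophils. In the same comparison Trem1 stood at 5.02% and Il1b at 24.3%, and Trem1 reached 307 CPM in Arg1 macrophages.

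The share of cells with a transcript was compared as counted and at equal depth. S100a8 was found in 2.45% of CD8 T cells (median depth 4788 molecules), 4.39% of monocytes (5997), 6.63% of C1q macrophages (9331) and 15.1% of melanoma cells (68615), against 79.5% of neutrophils. They had no single order with depth, since S100a8 was in 4.98% of eosinophils (1390), and S100a9 in 6.51% of regulatory T cells (3959) but 5.29% of C1q macrophages. Thinned to 1000 molecules, the shares were 0.72% in CD8 T cells (exact 95% interval 0.24% to 1.68%), 1.15% in monocytes (0.58% to 2.05%), 0.76% in C1q macrophages (0.35% to 1.43%) and 0 of 73 melanoma cells (up to 4.93%), against 73.5% of neutrophils. Cells too shallow for this were left out, 21 neutrophils, 22 eosinophils, 2 monocytes, 2 CD8 T cells and 2 B cells among these classes. The thinned intervals of monocytes and C1q macrophages overlap that of CD8 T cells, but they rest on 11, 9 and 5 cells with a molecule. Over all tags, S100a8 stood at 8.22 CPM in monocytes (6.08 to 10.9) and 7.85 CPM in C1q macrophages (6.37 to 9.56). Both exact Poisson 95% intervals lay above that of CD8 T cells, at 3.77 CPM (2.27 to 5.89). The S100a9 levels were 7.72, 6.81 and 6.35 CPM in the same order of classes, with overlapping intervals. A difference between these classes was not tested. Melanoma cells had a low level, at 2.18 to 2.56 CPM for S100a8.

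After neutrophils, B cells and eosinophils had the highest S100a8 by the median of the tags, and eosinophils the highest S100a9. Eosinophils had 29.9, 34.8 and 41.9 CPM of S100a8 and 59.7, 34.8 and 69.9 CPM of S100a9 in tags 8, 9 and 10, from 13 and 19 molecules in 241 cells. B cells had 10.5, 47.5 and 43.1 CPM of S100a8, from 13 molecules in 207 cells, of which 1 cell held 4. In every tag both classes stood above the S100a8 level of CD8 T cells, which ran from 2.91 to 4.56 CPM. Thinned, the shares with S100a8 were 2.74% of eosinophils (1.01% to 5.87%) and 2.93% of B cells (1.08% to 6.26%). Both intervals overlap that of CD8 T cells, but they rest on 6, 6 and 5 cells with a molecule. The difference was not tested. Eosinophils also held Retnlg, a neutrophil gate gene, at 8973 CPM, Hdc at 837 CPM and no Csf3r, which the single-gate rule partly sets. Whether these molecules come from the cells themselves was not tested. S100a8 made up 43.7% of the molecules of both genes in neutrophils (43.1% to 44.4%) and 48.4% in the 15 other classes (44.2% to 52.5%). These intervals just touch. In tags 8, 9 and 10 the share was 44.5%, 42.0% and 43.4% in neutrophils and 41.3%, 49.4% and 53.0% in the other classes. It was thus lower outside neutrophils in tag 8. The intervals stood apart in tag 10 alone (42.2% to 44.6% against 46.4% to 59.6%). They count each molecule as independent, although many molecules lay in the same neutrophils, so they are too narrow. A difference in this share was not tested.

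**Figure D2:**
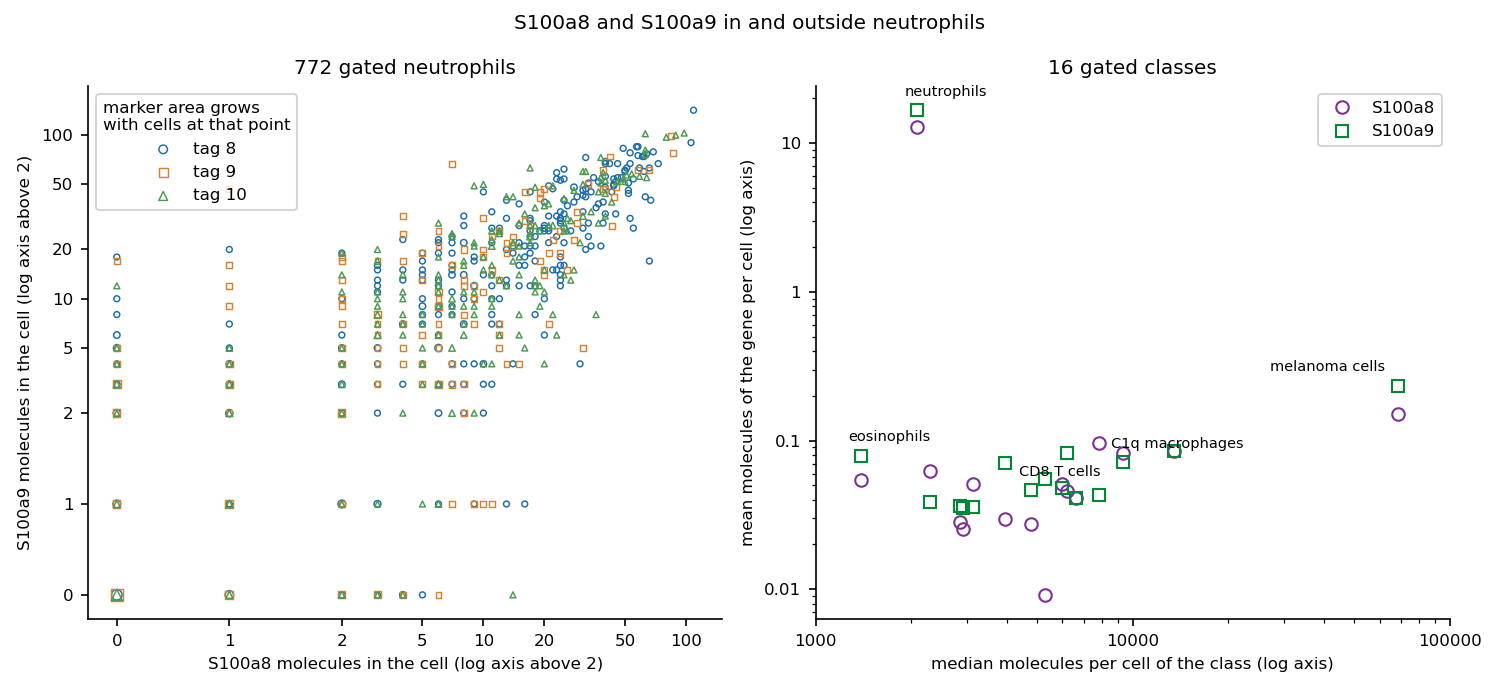
Left, S100a8 against S100a9 molecules in each of 772 gated neutrophils (axes logarithmic above 2), where marker area grows with the number of cells at a point; cells line up along the diagonal, with 107 cells at 0 for both. Right, mean molecules of each gene per cell against the median depth of the class, both axes logarithmic; neutrophils stand above the other 15 classes, and melanoma cells, the deepest class, hold the most molecules per cell among the rest, at 0.15 and 0.23.

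Neutrophils were then compared with C1q macrophages, the largest macrophage class. A gene was called when its level differed at least 2-fold the same way in all 3 tags. S100a8, S100a9 and S100a11 were called higher in neutrophils and S100a4 and S100a10 lower, that is 3 and 2 of 7, beside 5.78% and 18.0% of all 10231 genes compared. The log2 ratios were 9.36 for S100a8 (8.74 to 9.44 over the tags) and 9.60 for S100a9 (9.58 to 10.22). S100a11 stood at 2641, 1899 and 2191 CPM in neutrophils and 676, 646 and 603 CPM in C1q macrophages, a log2 ratio of 1.86. S100a10, which with annexin A2 binds plasminogen at the cell surface, stood at 138, 230 and 182 CPM against 836, 768 and 739 CPM, a log2 ratio of -2.02. S100a4, which binds non-muscle myosin, stood at 120, 132 and 133 CPM against 409, 319 and 368 CPM, a log2 ratio of -1.47.

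The median of all genes in this comparison was -0.61 on the log2 scale, so part of each lower call is shared by most genes. With TMM factors (a scaling that assumes most genes are alike) that median moved by 0.47 to -0.15, the S100a4 ratio became -1.03 and was no longer called, while S100a10 stayed called. The split of all calls also moved, from 5.78% higher and 18.0% lower to 9.13% and 8.17%. S100a6, a partner of the calcyclin-binding protein, and Anxa1 were not called, at log2 ratios of 0.57 and -1.03. Without tag 10 Anxa1 would be called lower.

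The formyl peptide receptors stood higher in neutrophils. Fpr1 stood at 233, 160 and 171 CPM in neutrophils and Fpr2, the receptor of annexin A1, at 565, 397 and 577 CPM, with log2 ratios to C1q macrophages of 4.84 and 3.45. Of the 12 listed receptors and partners 10 could be compared, and 2 were called higher (these 2) and 4 lower (Cd36, Ahnak, Cacybp and Pla2g4a), with a list median of 0.09 beside -0.61 for all genes. Of 11 other annexins 8 could be compared: Anxa11 was called higher at 1.21, and Anxa3, Anxa4 and Anxa5 lower at -1.35, -2.54 and -2.37, with a list median of -1.05. Of 10 other S100 genes 2 could be compared and none was called. Tlr4, the calprotectin receptor, was also highest in neutrophils, at 42.4, 41.4 and 35.8 CPM.

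Eosinophils had less of 4 members than neutrophils. S100a8, S100a9, S100a4 and Anxa1 were called lower and none higher, beside 5.50% of 5704 genes called lower and 14.1% higher. The log2 ratios were -6.89, -6.92, -1.44 and -1.87. The last 2 rest on 17 eosinophil molecules each, and neither was called with doubled gate minimums, at -0.57 and -0.72. S100a4 was not called after thinning either, at -0.25, nor Anxa1 without the Csf3r or Cxcr2 requirement, at -0.83. S100a6 and S100a11 were within 2-fold of neutrophils, at 1090, 1496 and 1327 CPM and at 2001, 1795 and 1481 CPM. The median of all genes was 0.56, and with TMM factors it moved by -0.80 to -0.23 and the calls to 3.89% higher and 12.99% lower. S100a10 then changed sign, from 0.65 to -0.10, and was called under neither scaling, but it was called higher in eosinophils after thinning, at 1.39. Among the other genes listed, Anxa6 was called higher in eosinophils (3.07) and Anxa2, Fpr1 and Fpr2 lower (-1.35, -3.97 and -4.25), along with S100a13 and Myh9 higher.

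No member was called in monocytes or Arg1 macrophages against C1q macrophages. Monocytes had 811, 707 and 660 CPM of S100a4 in tags 8, 9 and 10, against 409, 319 and 368 CPM in C1q macrophages. This gives log2 ratios of 0.99, 1.15 and 0.84, close to the 2-fold limit but past it in 1 tag alone. S100a11 was similarly placed, at 1604, 1229 and 1097 CPM in monocytes. None of the 7 members was called in monocytes, beside 0.842% of 10455 genes called higher and 2.33% lower. None was called in Arg1 macrophages either, beside 1.23% of 10092 genes higher and 2.03% lower. No gene of the 3 lists was called in either comparison.

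Arg1 macrophages had the highest Anxa1 and, by the median of the tags, stood first for S100a10, while over all tags together regulatory T cells had more (1364 against 1255 CPM). S100a10 stood there at 1250, 1267 and 1252 CPM, a range inside that of regulatory T cells and above the 1170, 975 and 887 CPM of monocytes. Anxa1 stood at 368, 591 and 470 CPM, and its tag range lay apart from the 275 to 334 CPM of C1q macrophages, the next class. Cells of this class held Anxa1 in 80.2% of cases as counted and 25.7% once thinned to 1000 molecules, against 66.8% and 19.3% of C1q macrophages; the thinned intervals overlap (19.6% to 32.6% and 17.1% to 21.7%). Anxa2, the partner of S100a10, was high there too, at 1590, 1432 and 1248 CPM, in a range that overlaps that of CCR7 dendritic cells.

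The 2 conventional dendritic cell types differed in 3 members. Of the 5 members with at least 30 molecules, S100a4, S100a6 and S100a10 were called higher in cDC2 than in cDC1 and none lower, beside 4.57% of 7008 genes called higher and 3.54% lower. S100a4 stood at 933, 884 and 1312 CPM in 122 cDC2 cells and at 32.5, 42.4 and 26.6 CPM in 118 cDC1 cells, a log2 ratio of 4.84 (4.38 to 5.62). S100a6 stood at 1875, 1654 and 2177 CPM against 256, 240 and 269 CPM, a log2 ratio of 2.87 (2.79 to 3.02). S100a10 stood at 709, 654 and 654 CPM against 171, 234 and 189 CPM, a log2 ratio of 1.79. Thinned to 1000 molecules, 62.3% of cDC2 cells and 2.54% of cDC1 cells held S100a4. Of the 57 S100a4 molecules in cDC1, 16 lay in a single cell.

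S100a11 and Anxa1 did not follow this pattern. S100a11 stood at 2379, 2408 and 2492 CPM in cDC1, the highest of the 16 classes in order, and at 2198, 2135 and 1758 CPM in cDC2, without overlap between them. Both ranges overlapped that of neutrophils, so the top of its order is not resolved. Anxa1 stood at 318, 199 and 290 CPM in cDC1 and 289, 173 and 163 CPM in cDC2.

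CCR7 dendritic cells, the mature migratory state, had less Anxa1 than cDC1 and cDC2 together. It was the 1 member of 6 called, and called lower, beside 8.31% of 8700 genes called lower and 7.93% higher. Anxa1 stood at 74.4, 38.7 and 97.5 CPM in them, a log2 ratio of -2.05 (-2.29 to -1.29). Of its 158 molecules there 61 lay in a single cell with tag 10, and the level over all tags fell from 70.8 CPM to 44.8 CPM without that cell. S100a4 stayed high at 698, 853 and 687 CPM, with S100a11 at 1492, 1742 and 1392 CPM. The other annexins went different ways: Anxa3 was called higher at 7.73, with 385, 398 and 415 CPM and the top level of the 16 classes, Anxa4 higher at 1.82 and Anxa6 lower at -2.19. With TMM factors the median of all genes moved by 0.14, from -0.12 to 0.02. Plasmacytoid dendritic cells had 67.3, 18.3 and 11.9 CPM of S100a4 and 8.97, 6.11 and 5.93 CPM of Anxa1. Their S100a6 stood at 399, 293 and 338 CPM, above the range of cDC1, and their S100a11 at 323, 385 and 344 CPM.

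**Figure D3:**
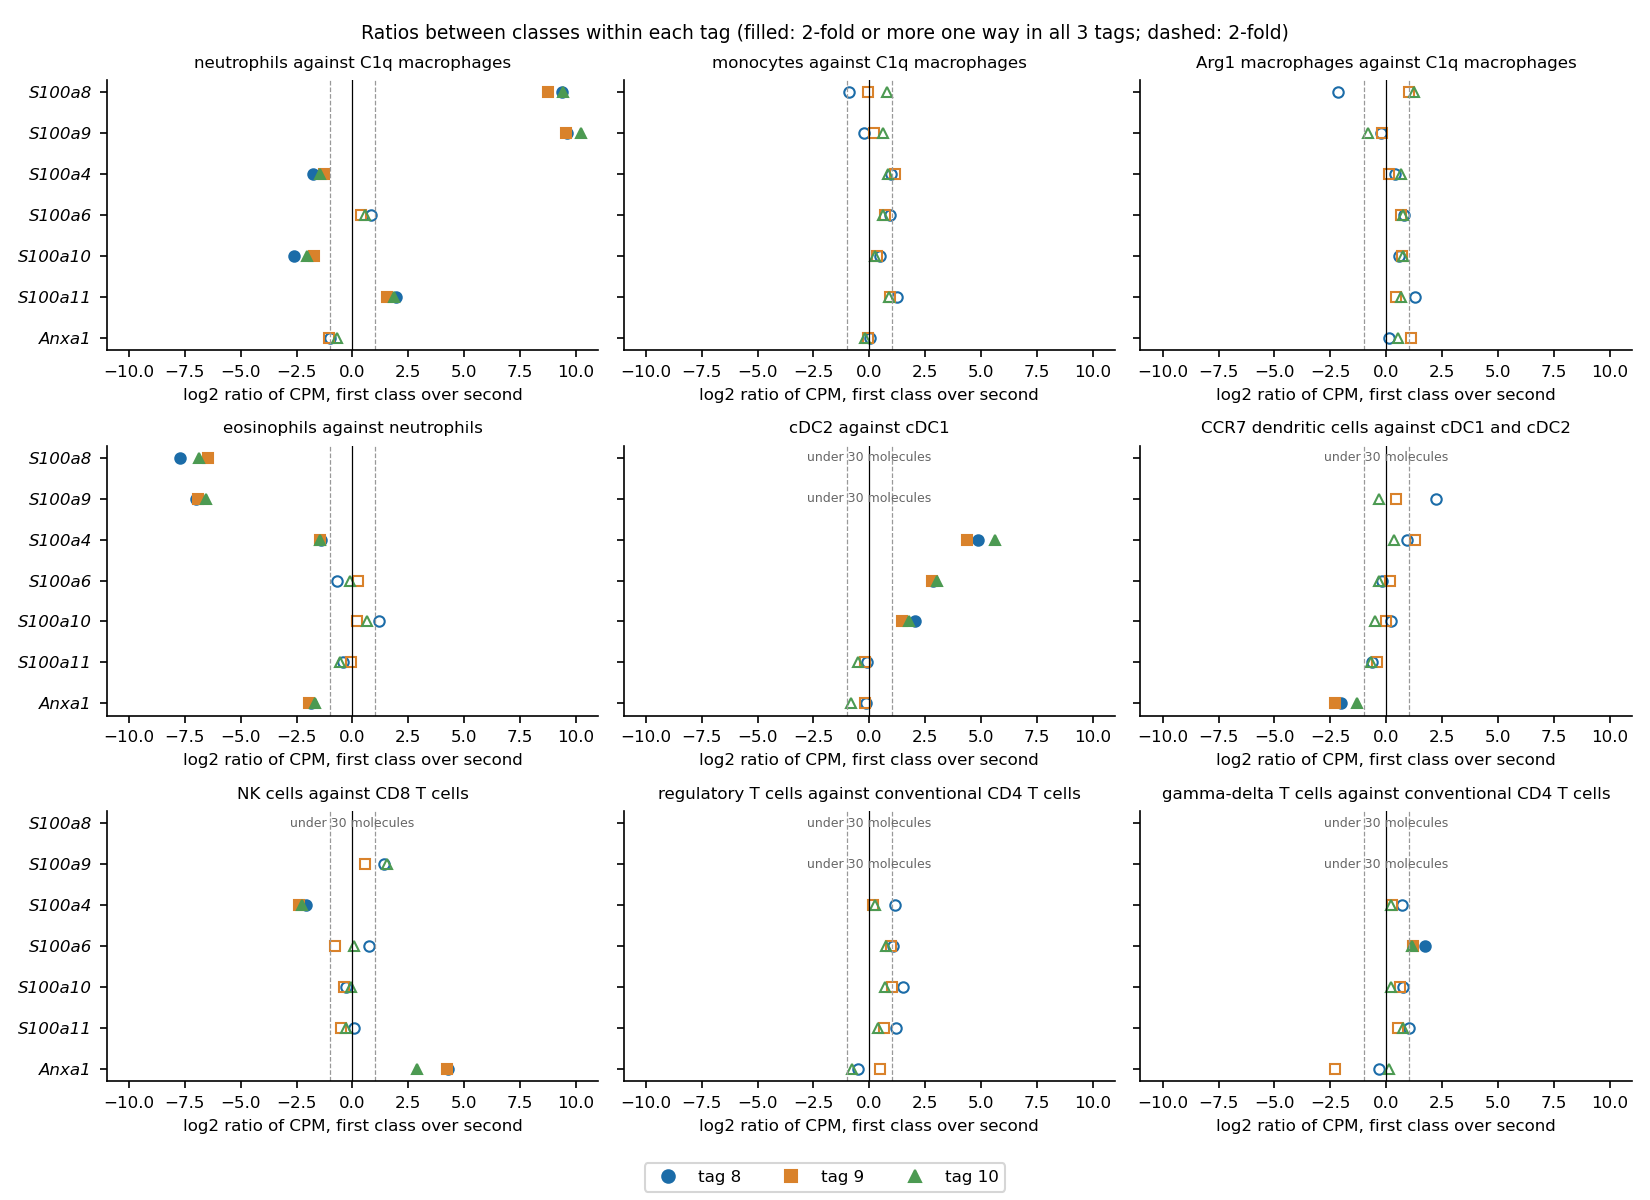
Log2 ratio of CPM for the 7 genes in 9 pairs of classes, 1 point per sample tag, filled where all 3 tags differ at least 2-fold the same way (dashed lines mark 2-fold). S100a8 and S100a9 lie between 8.74 and 10.22 in neutrophils against C1q macrophages, S100a4 between 4.38 and 5.62 in cDC2 against cDC1, and Anxa1 between 2.87 and 4.28 in NK cells against CD8 T cells.

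Among lymphocytes, NK cells and CD8 T cells differed in Anxa1 and S100a4. Anxa1 was called higher in NK cells and S100a4 lower, 1 and 1 of 6 members compared, beside 4.69% of 9155 genes called higher and 3.72% lower. Anxa1 stood at 222, 90.5 and 111 CPM in 249 NK cells and at 11.4, 4.85 and 15.2 CPM in 693 CD8 T cells, a log2 ratio of 4.22 (2.87 to 4.28). The NK value rests on 102 molecules, of which 24 lay in 1 cell, and thinned to 1000 molecules too few were left for a comparison. The ratio was 2.32 with the mean of single-cell CPM, still called. S100a4 stood at 80.0, 74.9 and 90.3 CPM in NK cells and 334, 394 and 437 CPM in CD8 T cells, a log2 ratio of -2.27. With TMM factors the median of all genes moved by -0.12, and the calls to 3.86% higher and 4.84% lower, with both members still called. S100a9 was called higher in NK cells with doubled gate minimums, at 1.85. S100a1 and Anxa3 were also called higher in NK cells, at 2.43 and 3.19. The Anxa3 call rests on 25 molecules in NK cells and 12 in CD8 T cells, with ratios from 1.69 to 5.89 over the tags.

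S100a6 varied more between tags in NK cells than in any other lymphocyte class but B cells, at 966, 334 and 767 CPM. The 5 NK cells with 10 or more S100a6 molecules held 43.0% of them, and 94 of 519 molecules lay in 1 cell with tag 10. Its log2 ratio to CD8 T cells was 0.05, between -0.77 and 0.74 over the tags, and -0.05 with TMM factors.

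Among CD4 and gamma-delta T cells, 1 member was called in 1 of the 2 comparisons. Regulatory T cells had 1999, 1140 and 1200 CPM of S100a10 and 1036, 996 and 916 CPM of S100a6, against 710, 571 and 736 CPM and 503, 516 and 546 CPM in conventional CD4 T cells. The log2 ratios ran from 0.71 to 1.49 for S100a10 and from 0.75 to 1.04 for S100a6. In both genes 2 of the 3 tags were below 2-fold, and none of the 5 members compared was called, beside 2.96% of 7098 genes called higher and 2.32% lower. S100a6 was called when cells were thinned to 1000 molecules or averaged as single-cell CPM, at 1.23 and 1.27. Gamma-delta T cells, in which the interleukin gene Il17a stood at 498 CPM, had 1669, 1180 and 1225 CPM of S100a6, and this was called higher than in conventional CD4 T cells at 1.19. It was the 1 member of 5 called, beside 1.83% of 6327 genes called higher and 1.66% lower.

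B cells and melanoma cells were low in most members. B cells had 35.0, 9.50 and 8.62 CPM of S100a4 and 119, 57.0 and 25.9 CPM of S100a6. They held Anxa1 in 3 of 207 cells, all with tag 8. Melanoma cells had 7.63, 7.88 and 12.2 CPM of S100a4 and 125, 89.8 and 97.4 CPM of S100a11, the lowest of the 16 classes in both orders. Their Anxa1, at 164, 169 and 161 CPM, had a range inside that of neutrophils, at 164, 134 and 203 CPM. Of the other S100 genes, S100b, a marker of pigment cells, and S100a1 were highest in melanoma cells, S100b at 130, 176 and 214 CPM and S100a1 at 272, 390 and 472 CPM.

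Over the 16 classes the members fell into loose groups. On log2(CPM + 10), S100a8 and S100a9 had a Pearson r of 0.99, S100a4 and S100a10 0.85, S100a6 and S100a11 0.78 and S100a4 and S100a6 0.77. Anxa1 was below 0.40 with every S100 gene. These describe 16 class profiles of 1 library and carry no test. Of 9900 other genes searched, the profiles nearest to S100a8 were Gm5483 (0.97), Gm20406 (0.97) and Stfa2l1 (0.97), and those nearest to S100a9 were Gm20406 (0.98), Gm5483 (0.98) and Chil1 (0.97). Gm5483 and Stfa2l1 belong to the stefin A family of near-identical genes, so their counts are uncertain. Nearest to S100a4 were Parp14 (0.84), Med15 (0.82) and Ms4a6b (0.81), to S100a6 Fxyd5 (0.87), Nfil3 (0.86) and Arl4c (0.86), and to S100a10 Med15 (0.86), Ms4a6b (0.86) and Ripk3 (0.80). Nearest to S100a11 were Fgl2 (0.90), Agtpbp1 (0.90) and Rab11fip1 (0.89), and to Anxa1 Sestd1 (0.96), Tubb6 (0.91) and Cdk14 (0.89).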

How the data were processed

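The deposited table holds raw molecule counts for each gene in each cell. Per the file headers, the authors ran the BD WTA Multiplex pipeline (Rhapsody, 1.9.1) against GRCm38 and GENCODE vM19. A different build, GRCm39, stands in the submitters' processing notes, and the header was followed here. The authors' tag call per cell was used as deposited. The labels and headers speak of a whole transcriptome library, the series text of a targeted one.

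Kept cells had a single tag, 200 or more genes and no more than 25% of molecules from mitochondria. Multiplet tags were left out and no doublet caller was run, so doublets within a tag remain. Gates used raw counts, neutrophils for example needing 3 molecules from at least 2 of Csf3r, Cxcr2, Retnlg, G0s2, Hdc and Il1r2, including 1 of Csf3r or Cxcr2. Molecules were added up by class and tag. Levels have exact Poisson 95% intervals and shares exact Clopper-Pearson 95% intervals, which cover counting error only. A gene needed 30 molecules in the pair of classes for a ratio; where a class had none, 3 were put in its place. The depth of the 3 tags was 21662592, 21753076 and 23683689 molecules before filtering.

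The members, the lists of other S100 genes, annexins, receptors and partners, and the gates were chosen with earlier results of these data known. All members are named, list genes by their calls, and for each member the 3 genes of highest Pearson r over the classes among those with 300 or more molecules. The calling rule was tested on simulated data. Sequences are from RefSeq on GRCm38.p6 and gene positions from GENCODE vM21. The scripts ran in Python 3.11.15 with pandas 2.3.3, numpy 2.4.6 and scipy 1.17.1; matplotlib 3.10.9 drew the plots. An alternative scaling took TMM factors computed by edgeR (4.0.16, under R 4.3.3). Other alternatives changed cell filters, gates, depth and averaging, or left out each tag.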

Additional observations from a re-analysis of the deposited data

Results flagged for a closer look

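Cells whose tag call was no single tag were used in no comparison, and both calprotectin genes were found in them above the level that a count of 0 allows. After the same filters, 175 cells with an undetermined tag held 11 molecules of S100a8 (2.77 CPM) and 9 of S100a9 (2.27 CPM), against a limit of 0.756 CPM. The 1271 cells called multiplets held 3677 molecules of S100a8 (355 CPM) and 4914 of S100a9 (474 CPM), against a limit of 0.290 CPM.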

How the results depend on the processing

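Each count of members called in the 9 pairs of classes was recomputed under 11 alternatives and without each tag, 126 recomputed counts in all, of which 121 stayed within 1.5 times the first value. No called member reversed. In eosinophils against neutrophils 2 members instead of 4 were called with doubled gate minimums. In NK cells against CD8 T cells 1 instead of 2 was called after thinning to 1000 molecules. In regulatory against conventional CD4 T cells 1 instead of 0 was called after thinning and also with the mean of single-cell CPM. In Arg1 against C1q macrophages the count was between 0 and 1 with a tag left out, the 1 being S100a8 without tag 8, and in neutrophils against C1q macrophages between 5 and 6. The share of S100a8 and S100a9 molecules outside gated neutrophils, 19.1% as reported, was 13.4% after thinning, 19.8% with no cell filter, 24.7% with doubled gate minimums and 13.4% without the Csf3r or Cxcr2 requirement. It lay between 17.6% and 23.1% with a tag left out, the highest without tag 8. That requirement and the removal of cells with T receptor molecules from classes other than T cells were chosen as alternatives after seeing the data. S100a4 in neutrophils against C1q macrophages was at -0.72, and not called, without the requirement. Ratios between classes were taken within each tag. Pairing by mouse was not possible because the labels give no replicate numbers and 1 tag stands for each unnamed group. Low counts limit S100a8 and S100a9 outside neutrophils, where most classes hold fewer than 30 molecules of each.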
